A study of Homo sapiens with 12 samples.

Results

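The genes described are those of glycolysis, lactate handling and the pentose phosphate pathway, with 4 genes of the hypoxia axis and pyruvate oxidation that are linked to them. They are the 35 named genes of this group among the 61466 rows of the deposited expression table, chosen by name and not by their values. Of the 35 genes, 33 passed the filter on low values and were tested, and PFKFB4 and SLC16A3 were too low. RNA sequencing was run on the human lines SU-DHL-8 and Farage, established from diffuse large B cell lymphoma and both labelled as lymph node and as wild type. Each line was given vehicle (the control) or morusinol, a prenylated flavonoid known from mulberry trees, and was taken at 12 h. The design thus has 4 groups (each line with vehicle, each line with morusinol) of 3 libraries. Each group is 1 cell line in culture, and no further agent or allele is labelled. The labels give no dose and do not say whether the replicates were separate cultures, so every p-value refers to the spread among these libraries, which may be technical.

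Glycolysis splits glucose to pyruvate, which lactate dehydrogenase reduces to lactate or pyruvate dehydrogenase passes to the mitochondria. The pentose phosphate pathway branches off after hexokinase, yields NADPH and ribose phosphate, and returns carbon to glycolysis. Proliferating lymphoma cells are known for high glycolytic flux with lactate release, and transcription factors of the hypoxia and MYC families are known to bind the promoters of many glycolytic genes through short shared motifs.

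Promoter stretches of 8 of the genes are printed because their transcripts carry the main contrasts in the results: LDHA, GPI, PGK1 and TPI1 fell in both lines and hold a match to the motif, PGAM1 and PKM fell as strongly and hold none, and ENO2 and BNIP3 rose in Farage. The windows are the 250 bases upstream of RefSeq gene starts (build GRCh38.p14), and 32 of the 35 genes had such a window. SLC2A3, SLC16A1 and PFKFB2 had no entry. The letters searched on both strands were ACGTG and GCGTG, the cores of the hypoxia response element, and the E-box CACGTG, which contains ACGTG. Capitals mark ACGTG or its reverse complement, and the 6 letters of the E-box where both coincide. Each stretch is written 5′ to 3′ on the strand of its gene.
LDHA (chr11:18394430-18394514, plus strand): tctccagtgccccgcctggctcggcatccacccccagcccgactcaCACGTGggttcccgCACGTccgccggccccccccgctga
GPI (chr19:34364810-34364854, plus strand): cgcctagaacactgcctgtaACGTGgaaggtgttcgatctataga
PGK1 (chrX:78104026-78104089, plus strand): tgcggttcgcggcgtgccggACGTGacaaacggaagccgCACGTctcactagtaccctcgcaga
TPI1 (chr12:6868068-6868104, plus strand): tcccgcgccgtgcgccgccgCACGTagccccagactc
ENO2 (chr12:6914442-6914486, plus strand): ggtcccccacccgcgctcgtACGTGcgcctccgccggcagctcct
BNIP3 (chr10:131982032-131982077, minus strand): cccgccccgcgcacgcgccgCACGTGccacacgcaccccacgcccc
PGAM1 (chr10:97427738-97427817, plus strand): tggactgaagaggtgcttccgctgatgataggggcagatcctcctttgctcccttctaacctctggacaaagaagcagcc
PKM (chr15:72231191-72231270, minus strand): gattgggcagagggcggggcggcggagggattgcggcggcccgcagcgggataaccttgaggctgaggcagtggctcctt
ACGTG was present in 21 of the 60 windows of these genes (35%) and in 18.5% of all 35116 windows. GCGTG was present in 31.7% of the windows of these genes and in 32.2% of all windows. The E-box was present in 13.3% against 6.34%. Of the 30 windows of the 17 genes that fell in both lines, 12 (40.0%) held ACGTG, among them those of LDHA, GPI, PGK1 and TPI1 shown above, while 26.7% held GCGTG and 13.3% the E-box. A match describes the letters only, and its absence from the windows of PGAM1 and PKM says nothing of the factors that bind there.

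Values are FPKM, fragments scaled by gene length and library depth, so levels of different genes can be set side by side. Levels are means ± SD over the 3 libraries of a group. Changes are log2 fold changes of FPKM + 1 ± SE, morusinol minus control unless another order is given, and this scale understates the change of genes with low values. A gene is said to have risen or fallen where limma gave a p under 0.05 after Benjamini-Hochberg adjustment over all 17574 genes tested. In bulk RNA, fewer cells that express a gene and less RNA per cell cannot be told apart. Across genes, the Pearson r between log2 values of 2 libraries was 0.964 to 0.980 within a group and 0.726 to 0.796 between lines. Estimated depth was 14.2 to 15.2 M (mega) fragments per library of untreated SU-DHL-8 and 6.05 to 14.96 M of treated SU-DHL-8. In Farage it was 16.6 to 18.95 M in control and 9.37 to 12.7 M in morusinol, so the treated libraries were shallower, and the part of depth in the results was not tested. All 6 B cell markers examined were present in both lines. Their summed level was 354 to 368 FPKM in SU-DHL-8 control and 230.1 to 238 with morusinol, and 966 to 1021 and 613 to 659.9 FPKM in Farage. Single markers did not all follow these sums. In SU-DHL-8 CD79B (71.7 to 91.6 FPKM) and PAX5 (39.8 to 45.1) rose, while the other markers fell. The fall of the sum there came mainly from the marker of the highest level, which did not pass the test in Farage. In Farage the other markers fell, and MS4A1 (356 to 92.9 FPKM) made up most of the fall of the sum. Of the 8 T and NK cell markers 3 reached a group mean of 1 FPKM, led by TRAC with 70.0 FPKM in Farage control. The sum of the 8 in Farage moved from a range of 71.4 to 80.3 FPKM to one of 45.5 to 55.9, nearly all of it TRAC, which went to 47.1 FPKM. PRF1 did not pass the test in Farage (4.05 to 3.73 FPKM), and CD8A, not tested and under 1 FPKM, was higher with morusinol (0.215 to 0.704). The highest myeloid and stromal markers were LYZ at 1.37 FPKM and PDGFRB at 1.07 FPKM. What part these marker shifts have in the results was not tested.

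Most transcripts of glycolysis were lower after morusinol in both lines, and the fall was larger in SU-DHL-8. Of the 33 genes tested, 23 fell and 3 rose in SU-DHL-8, where 21.6% of all genes tested were called lower and 25.1% higher. In Farage 19 fell and 9 rose, against 21.2% and 21.9% of all genes. The fallen genes were thus 69.7% and 57.6% of those tested, well above these backgrounds, whereas the risen genes were 9.09% in SU-DHL-8 and 27.3% in Farage. The median change of the 33 genes was -0.51 in SU-DHL-8 and -0.35 in Farage, beside 0.02 and -0.03 over all genes tested. In SU-DHL-8, 9 genes fell by at least 2-fold on the log2(FPKM + 1) scale (background 2.86%), and in Farage 4 did (background 2.56%): LDHA, PKM, PGAM1 and PGK1, which are also among the 9. In Farage 1 gene, SLC2A3, rose at least 2-fold. Of the 33 tested genes, control and morusinol libraries did not overlap in 27 in SU-DHL-8 (81.8%, background 54.1% of all genes tested), with morusinol below in 24 (72.7%, background 24.9%) and above in 3 (9.09%, background 29.2%). In Farage they did not overlap in 31 (93.9%, background 51%), with morusinol below in 20 (60.6%, background 25.3%) and above in 11 (33.3%, background 25.8%). Without the shallowest library, the second SU-DHL-8 morusinol replicate, 21 genes fell and 3 rose in SU-DHL-8.

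**Figure D1:**
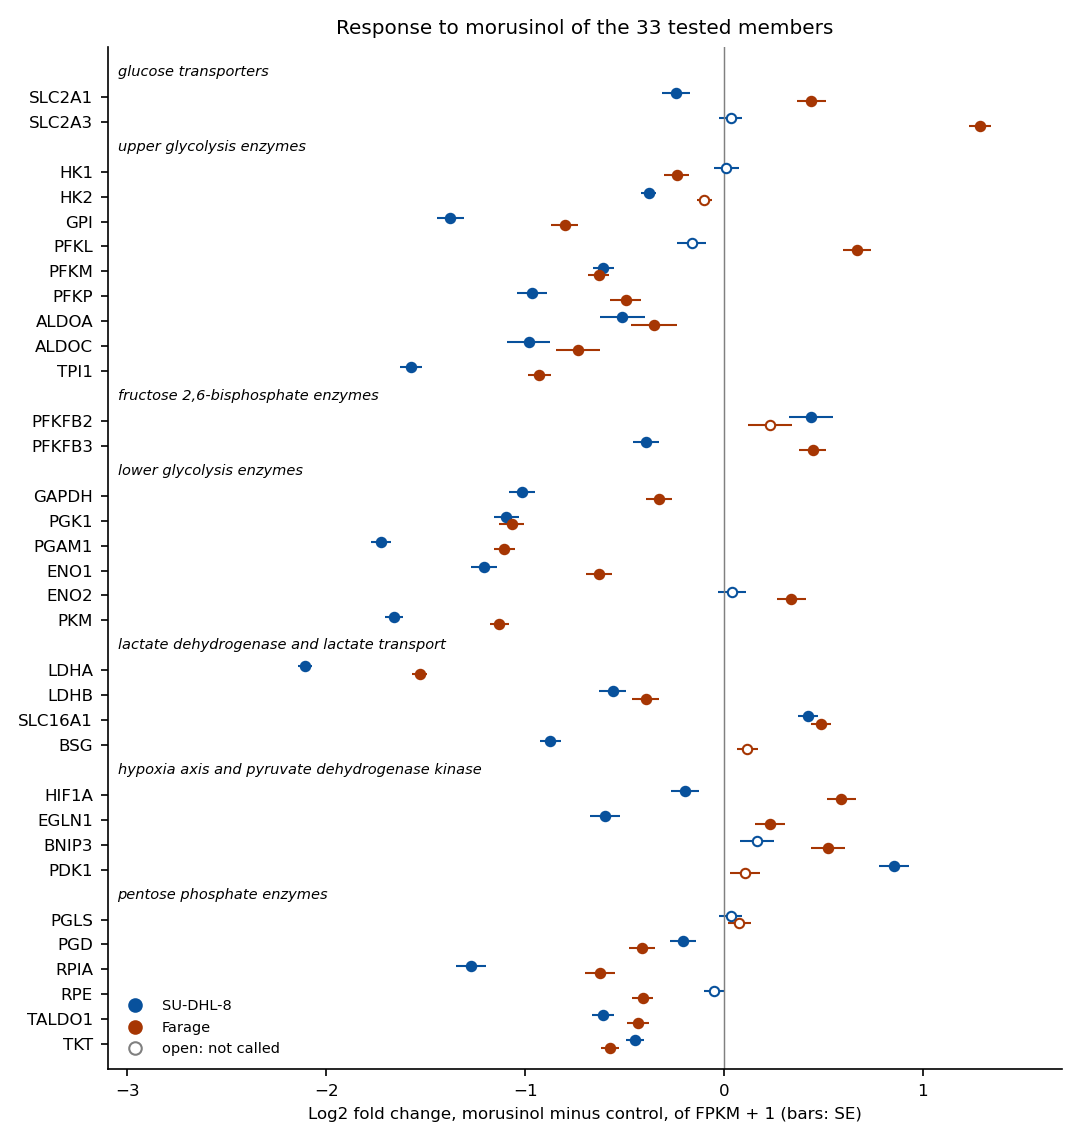
Log2 fold change of FPKM + 1 (x axis, morusinol minus control, bars are SE) of the 33 tested genes, grouped by role (y axis), in SU-DHL-8 (blue) and Farage (brown). Filled points passed the test and open points did not. LDHA has the lowest value in each line, -2.11 and -1.53, and SLC2A3 in Farage the highest, 1.29.

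The same 17 genes fell in both lines (51.5% of those tested, background 11.1%): GPI, PFKM, PFKP, ALDOA, ALDOC and TPI1 of upper glycolysis, GAPDH, PGK1, PGAM1, ENO1 and PKM of lower glycolysis, LDHA and LDHB, and PGD, RPIA, TALDO1 and TKT of the pentose phosphate pathway. Only SLC16A1 rose in both (3.03%, background 11.5%). SLC2A1, PFKFB3, HIF1A and EGLN1 fell in SU-DHL-8 and rose in Farage (12.1%, background 4.26%), though only for PFKFB3 did both calls hold in every alternative fit. BSG and HK2 fell in SU-DHL-8 and did not pass the test in Farage, HK1 and RPE fell in Farage and did not pass in SU-DHL-8, and PGLS passed in neither. PDK1 and PFKFB2 rose in SU-DHL-8 and PFKL and SLC2A3 in Farage, each without passing the test in the other line. ENO2 and BNIP3 also rose in Farage, but they reached 1 FPKM only there, and their SU-DHL-8 values are too near 0 on the log2(FPKM + 1) scale to compare the lines. Across the 33 genes the responses of the lines, which share no library, correlated with a Pearson r of 0.78 and a Spearman rho of 0.80. Over all 17574 genes the same measures were 0.41 and 0.40. Genes are not independent replicates, and these values describe the set without a test.

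The abundant enzymes made up most of the signal. In SU-DHL-8 control the highest levels were those of GAPDH, TPI1, ENO1, LDHA and PKM, at 940.0, 461, 439, 249 and 172 FPKM. The order in Farage control was GAPDH, ENO1, PKM, LDHA and PGAM1, at 859, 317, 254, 173 and 149 FPKM. The summed FPKM of the 35 genes was 3210.1, 3201 and 3116 in untreated SU-DHL-8 and 1549, 1514 and 1505 with morusinol, a ratio of means of 0.479. In Farage it was 2605, 2402 and 2721 in control and 1871, 1859 and 1714 with morusinol, a ratio of 0.704. The ranges did not overlap in either line. As a share of the FPKM of all protein-coding genes, the group went from 1.42% to 0.719% in SU-DHL-8 and from 1.21% to 0.893% in Farage. GAPDH alone was a large part of the sum, and without it the ratios were 0.474 and 0.659. Across the 33 genes, a higher control level went with a lower log2 change, with a Spearman rho of -0.67 in SU-DHL-8 and -0.59 in Farage, beside -0.28 and -0.12 over all genes tested. The control libraries enter both measures of these correlations, and low values are damped by the pseudocount, so they are given as a description.

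**Figure D2:**
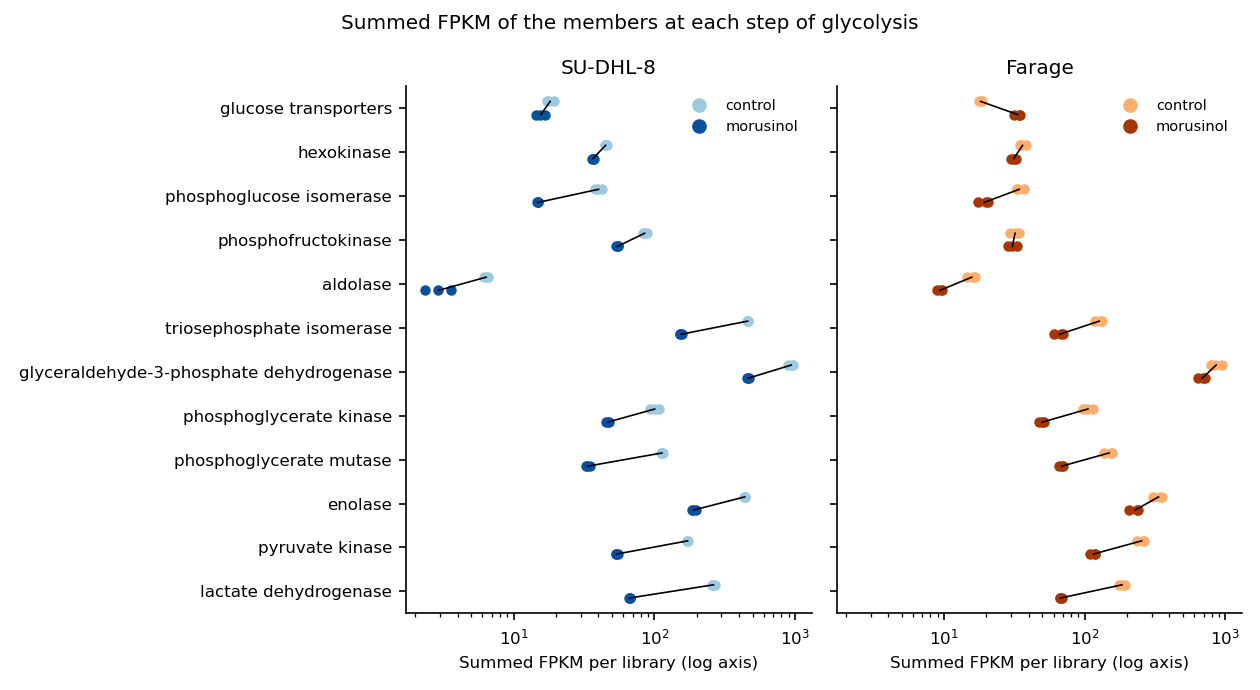
Summed FPKM per library (log x axis) of the genes that serve each step from glucose uptake to lactate (y axis), in SU-DHL-8 (left) and Farage (right). Pale points are control libraries, dark points morusinol libraries, and lines join the means. Lactate dehydrogenase has the lowest ratio of morusinol to control in each line, 0.253 and 0.366, while glucose transporters have 0.858 in SU-DHL-8 and 1.84 in Farage.

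Set out by step, the sums were lower with morusinol at each of the 12 steps in SU-DHL-8 and at 10 in Farage, where the phosphofructokinase groups overlapped and the transporters were above control. The lowest ratios in SU-DHL-8 were those of lactate dehydrogenase (0.253), phosphoglycerate mutase (0.297), pyruvate kinase (0.313) and triosephosphate isomerase (0.335). In Farage they were those of lactate dehydrogenase (0.366), pyruvate kinase (0.454), phosphoglycerate mutase (0.461) and phosphoglycerate kinase (0.471). The hexokinase sum moved less, with ratios of 0.813 and 0.865.

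The glucose transporters went apart between the lines. SLC2A3, which encodes the high-affinity transporter GLUT3 (ENSG00000059804, chr12:7919230-7936275, minus strand of GRCh38), stood at 6.299, 6.48 and 6.35 FPKM in untreated Farage and at 17.2, 17.6 and 16.2 with morusinol. All 3 treated libraries were far above all controls, a change of 1.29 ± 0.06 (adjusted p = 4.65e-08) and a 2.67-fold higher mean. In SU-DHL-8 the gene was low, at 2.05, 1.93 and 1.805 FPKM in control and 1.85, 2.204 and 1.95 with morusinol. These groups overlapped, and the value of 0.03 ± 0.06 did not pass the test and became -0.05 when the values were rescaled to TPM. SLC2A1, which encodes the basal transporter GLUT1 (ENSG00000117394, chr1:42925375-42959176, minus strand), was at 17.4, 15.2 and 16.2 FPKM in untreated SU-DHL-8 and 14.9, 12.3 and 13.5 with morusinol, and all treated libraries were below the controls. That fall of -0.24 ± 0.07 (adjusted p = 0.0177) was small and its call was lost without the first control library (adjusted p = 0.0729) and without the second morusinol library (0.0687). It was also lost with protein-coding scaling (-0.17, adjusted p = 0.0632) and in a fit to the SU-DHL-8 libraries alone (0.0614), so the fall is uncertain. In Farage SLC2A1 rose by 0.44 ± 0.07 (adjusted p = 5.96e-04), from 11.5, 11.99 and 11.9 FPKM to 17.5, 16.3 and 15.3, with no overlap. Reads of SLC2A3 can be shared with 3 processed copies, whose summed FPKM was 18.7% of the gene's in SU-DHL-8 control and 41.0% with morusinol. In Farage the copies stood at 15.5% and 6.07%.

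In upper glycolysis 7 of 9 enzymes fell in each line (backgrounds 21.6% of all genes tested in SU-DHL-8 and 21.2% in Farage). The Farage count includes ALDOA, whose call there is unstable. TPI1, triosephosphate isomerase (ENSG00000111669, chr12:6867119-6870948, plus strand), had the largest fall, from 465, 464 and 454 FPKM to 158, 152 and 152 in SU-DHL-8, a change of -1.57 ± 0.06 (adjusted p = 7.96e-09). In Farage it fell from 130.2, 118 and 132 to 70.05, 67.7 and 60.9 FPKM, by -0.93 ± 0.06 (adjusted p = 4.98e-07). Treated and control libraries were far apart in both lines, and the control level of SU-DHL-8 was 3.63-fold that of Farage. Its 4 pseudogene copies summed to 4.03% of the gene's FPKM in SU-DHL-8 control and 7.24% with morusinol, and to 6.62% and 7.82% in Farage. GPI, phosphoglucose isomerase, stood at 39.97, 38.1 and 42.4 FPKM in untreated SU-DHL-8 and 14.8, 14.7 and 14.98 with morusinol, and at 37.1, 32.8 and 32.8 and 19.9, 20.5 and 17.4 in Farage. The groups did not overlap in either line, with changes of -1.38 ± 0.07 and -0.80 ± 0.07.

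The hexokinases, which trap glucose in the cell as glucose phosphate, differed by line. HK2, the form known to be induced in tumours, fell in SU-DHL-8 from 35.2, 34.9 and 36.9 FPKM to 27.4, 27.1 and 26.9, by -0.38 ± 0.04 (adjusted p = 1.39e-05). In Farage its libraries were at 9.97, 9.79 and 9.33 and 8.99, 8.67 and 9.31 FPKM, lower throughout with morusinol, but the change of -0.10 ± 0.04 did not pass the test (adjusted p = 0.0621). It passed without the third control library (0.0387) or without the third morusinol library (0.0371). HK1, the more broadly expressed form, was at 28.5, 24.7 and 26.1 FPKM in untreated Farage and fell to 22.3, 23.7 and 20.7, by -0.24 ± 0.06. In SU-DHL-8 HK1 was at 9.24, 9.89 and 9.04 and 9.802, 9.45 and 9.16 FPKM, overlapping groups with a value of 0.01 ± 0.06 that turned to -0.09 under TPM and to -0.02 under median-ratio scaling.

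Phosphofructokinase, the committing step of glycolysis, has 3 subunit genes, and they went different ways. PFKP, the platelet type, fell from 31.9, 31.04 and 34.3 FPKM to 16.8, 16.5 and 15.1 in SU-DHL-8 and from 12.04, 9.99 and 11.2 to 8.195, 7.64 and 6.85 in Farage, by -0.97 ± 0.08 and -0.49 ± 0.08. PFKM, the muscle type, fell by -0.61 ± 0.05 and -0.63 ± 0.05, to 22.6 ± 0.568 and 6.81 ± 0.452 FPKM. Of its exon bases 8.58% lie opposite SENP1, whose reads cannot be told apart if counting ignored strand. PFKL, the liver type, rose in Farage from 10.2, 9.05 and 10.1 FPKM to 17.9, 15.5 and 15.1, by 0.67 ± 0.07 (adjusted p = 2.78e-05). All treated libraries were above the controls there, whereas in SU-DHL-8 they were below, at 16.6, 15.3 and 15.9 FPKM against 17.9, 16.9 and 19.1. The SU-DHL-8 value of -0.16 ± 0.07 did not pass the test (adjusted p = 0.0874), and did so only under TPM, at -0.27.

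The aldolases, which split the hexose into trioses, had the lowest summed FPKM of the 12 steps as the table lists them, a rank that rests on an uncertain ALDOA level. ALDOC fell from 3.68, 4.56 and 3.57 FPKM to 1.77, 1.11 and 1.64 in SU-DHL-8 and from 13.03, 11.997 and 14.04 to 7.08, 7.85 and 7.36 in Farage, by -0.98 ± 0.11 and -0.73 ± 0.11. ALDOA, known as the main form in most cells, was listed at only 1.23 to 2.996 FPKM over the 12 libraries. The table may not hold all of its reads, since 42.3% of its exon bases are shared on the same strand with another annotated gene, AC093512.2, so its level is uncertain. It fell by -0.51 ± 0.11 and -0.35 ± 0.11. The Farage call (adjusted p = 0.0299) was lost without control library 1 or 3 or without morusinol library 1 or 2, with adjusted p from 0.0547 to 0.103, and also with no filter (0.0673) and with protein-coding scaling (0.0577).

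The enzymes of fructose bisphosphate signalling, which make and degrade the allosteric activator of phosphofructokinase, did not move as a block. PFKFB3, the form with the strongest kinase activity, fell in SU-DHL-8 from 3.99, 4.08 and 4.46 FPKM to 2.89, 3.15 and 2.79, by -0.39 ± 0.07 (adjusted p = 6.66e-04). In Farage it rose from 13.02, 11.9 and 11.5 to 17.2, 17.98 and 15.5 FPKM, by 0.45 ± 0.07 (adjusted p = 3.46e-04). Neither line's groups overlapped, and both calls held in each of the 14 alternative fits run for them. PFKFB2 was near 1 FPKM in both controls and rose in SU-DHL-8 to 1.84, 1.25 and 1.92, by 0.44 ± 0.11 (adjusted p = 0.00726). Its Farage value of 0.23 ± 0.11 did not pass. Of PFKFB2 exon bases 3.09% lie opposite YOD1, whose reads cannot be told apart if counting ignored strand. Over the 12 libraries YOD1 had a mean of 5.96 FPKM against 1.25 for PFKFB2, so the low PFKFB2 values are uncertain. PFKFB4, not tested, was at 0.554, 0.732 and 0.526 FPKM in untreated SU-DHL-8 and 0.2095, 0.189 and 0.0711 with morusinol. All of its treated libraries were lower there, while those of Farage overlapped, with means of 0.721 and 0.738 FPKM.

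In lower glycolysis 5 of 6 genes fell in both lines (background 11.1% of all genes tested) and ENO2 did not. PGAM1, phosphoglycerate mutase (ENSG00000171314, chr10:97426160-97433441, plus strand), fell from 112, 113 and 114 FPKM to 35.1, 32.4 and 33.2 in SU-DHL-8, by -1.72 ± 0.05 (adjusted p = 2.54e-09). In Farage it fell from 156, 137 and 153 to 69.4, 70.4 and 65.95, by -1.10 ± 0.05 (adjusted p = 7.24e-08). Treated libraries were far below the controls in both lines. The 13 PGAM1 copies in the table summed to 3.93% of the gene's level in SU-DHL-8 control and 19.2% with morusinol, and to 5.61% and 10.6% in Farage, so part of the reads may be assigned either way.

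PKM, pyruvate kinase (ENSG00000067225, chr15:72199029-72231822, minus strand), which makes pyruvate and ATP, fell from 172, 171 and 175 FPKM to 55.5, 53.2 and 53.2 in SU-DHL-8, by -1.66 ± 0.05 (adjusted p = 2.08e-09). In Farage it fell from 263, 237 and 261 to 119, 118 and 109 FPKM, by -1.13 ± 0.05 (adjusted p = 3.66e-08). The lines started from different levels, and neither showed overlap between groups. The splice forms of PKM are not separate in a table per gene.

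ENO1, the main enolase, fell from 442, 439 and 436 FPKM to 197, 188 and 184 in SU-DHL-8 and from 326, 289.8 and 335 to 213, 214 and 186 in Farage, by -1.21 ± 0.06 and -0.63 ± 0.06. PGK1, phosphoglycerate kinase, the first step to regain ATP, was at 101, 107 and 93.8 FPKM in untreated SU-DHL-8 and 46.8, 47.4 and 45.3 with morusinol. In Farage it was at 104, 97.9 and 114 and 49.95, 51.4 and 47.5. The controls of the lines overlapped, and it fell by -1.10 ± 0.06 and -1.07 ± 0.06. GAPDH, which couples triose oxidation to NADH and is often used as a reference gene, was at 971, 952 and 897 FPKM in untreated SU-DHL-8 and 463, 469 and 458 with morusinol. That fall of -1.02 ± 0.07 (adjusted p = 4.96e-07) left the treated libraries at about the same level as each other and far below the controls. In Farage GAPDH went from 842, 792 and 944 to 717, 697 and 636 FPKM, a fall of -0.33 ± 0.07 (adjusted p = 0.00218) with the groups apart.

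ENO2, the neuronal enolase, was a Farage gene among these libraries. It stood at 0.04601, 0.0164 and 0.0316 FPKM in untreated SU-DHL-8 and 0.0618, 0 and 0.125 with morusinol, near or at 0. In Farage it was at 19.8, 16.96 and 17.5 FPKM and rose to 23.8, 24.04 and 21.5, by 0.34 ± 0.07 (adjusted p = 0.00315). The Farage groups did not overlap, but with a pseudocount of 0.1 in place of 1 the change was 0.35 and the adjusted p 0.298.

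LDHA had the largest fall of the 33 genes in each line. The gene (ENSG00000134333, chr11:18394388-18408425, plus strand of GRCh38) encodes the subunit of lactate dehydrogenase that favours lactate formation, and its promoter stretch above holds an E-box and a further ACGTG match. In SU-DHL-8 its level was 245, 257 and 244 FPKM in control and 57.7, 56.98 and 55.95 with morusinol, a 4.37-fold lower mean and a change of -2.11 ± 0.04 (adjusted p = 1.39e-10). In Farage it was 173, 166 and 181 FPKM in control and 59.6, 59.996 and 58.4 with morusinol, 2.92-fold lower, with -1.53 ± 0.04 (adjusted p = 1.12e-09). The controls of the lines differed, while the treated libraries of both lay within 55.95 to 60 FPKM. LDHB, the subunit that favours lactate oxidation, fell less, from 15.2, 15.2 and 14.5 FPKM to 9.56, 10.3 and 9.68 in SU-DHL-8 and from 10.2, 10.5 and 12.03 to 7.404, 8.805 and 7.96 in Farage, by -0.56 ± 0.07 and -0.39 ± 0.07. Of its exon bases 33.4% are shared on the same strand with the annotated gene AC010197.2, which had hardly any signal.

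The lactate carriers did not follow LDHA. SLC16A1, which encodes the proton-coupled lactate transporter MCT1, rose in SU-DHL-8 from 50.1, 53.1 and 46.4 FPKM to 67.9, 65.6 and 67.5, by 0.42 ± 0.05 (adjusted p = 4.52e-05). In Farage it rose from 19.7, 19.6 and 20.97 to 28.96, 27.6 and 29.2 FPKM, by 0.49 ± 0.05 (adjusted p = 2.02e-05). Treated libraries were above controls in both lines. BSG, basigin, the chaperone that brings MCT1 and MCT4 to the cell surface, fell in SU-DHL-8 from 67.8, 67.1 and 69.3 to 38.1, 35.5 and 36.5 FPKM, by -0.87 ± 0.05 (adjusted p = 2.90e-07). In Farage BSG stood at 111, 97.2 and 109.7 FPKM in control and 114, 119 and 112 with morusinol, just apart, and the change of 0.12 ± 0.05 did not pass the test (adjusted p = 0.0989). It passed when libraries were scaled to protein-coding genes, at 0.19. SLC16A3, which encodes the lactate exporter MCT4, was below 1 FPKM in every library, on average 0.177 FPKM in untreated and 0.386 FPKM in treated SU-DHL-8, and 0.279 and 0.544 in Farage.

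**Figure D3:**
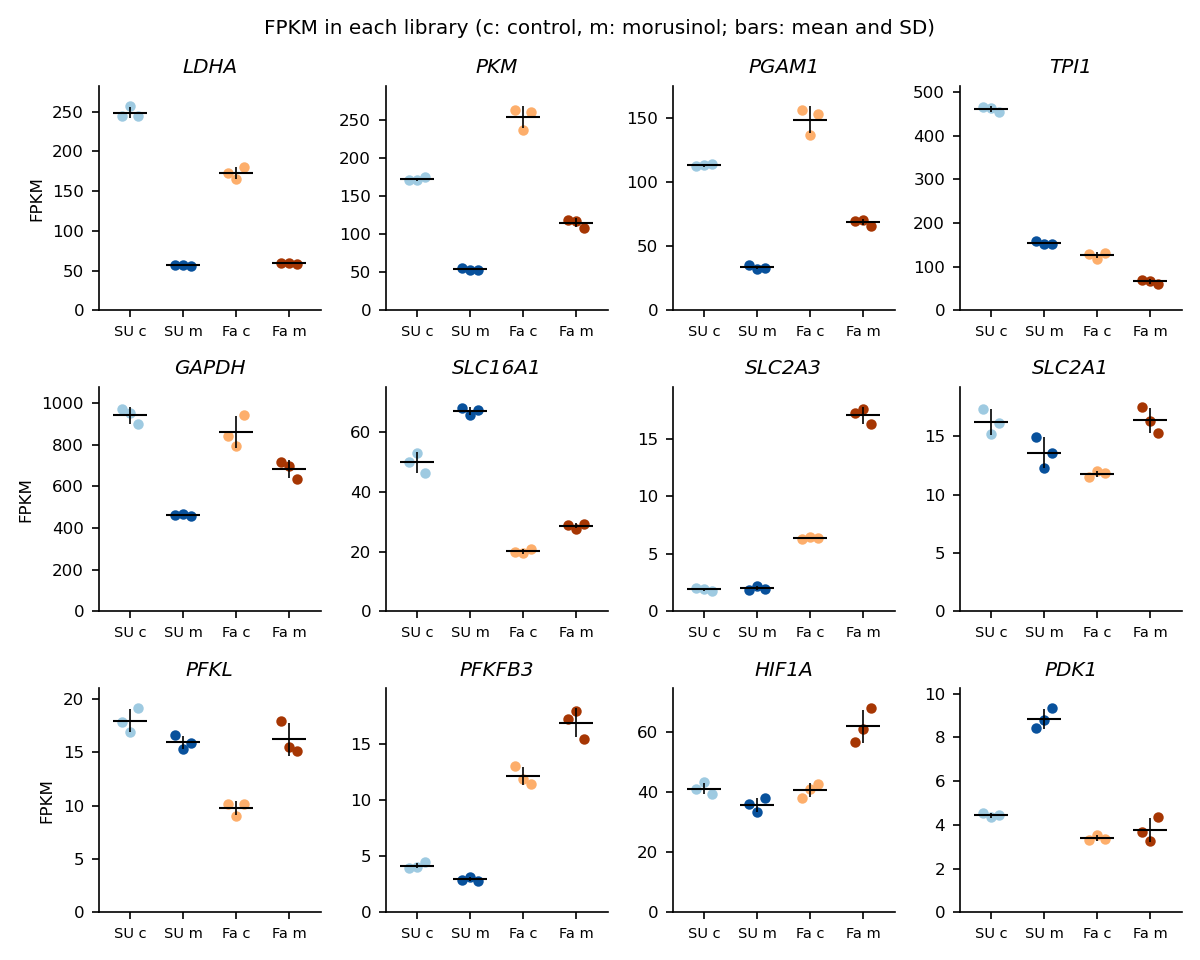
FPKM (y axis, from 0) of 12 of the genes in each library, with 3 points per group, black bars for the mean and whiskers for the SD. SU is SU-DHL-8, Fa is Farage, c is control and m is morusinol. LDHA, PKM, PGAM1, TPI1 and GAPDH are lower with morusinol in both lines, SLC16A1 is higher in both, and SLC2A3, SLC2A1, PFKL, PFKFB3 and HIF1A are higher with morusinol in Farage.

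Of the hypoxia axis and PDK1, 3 of 4 genes rose in Farage (background 21.9% of all genes tested). Only PDK1 of the 4 rose in SU-DHL-8, which is near the background of 25.1%, and 2 fell there (background 21.6%). HIF1A, the oxygen-labile subunit of the hypoxia-inducible factor, was at 38.1, 41.03 and 42.7 FPKM in untreated Farage and 56.6, 60.9 and 67.8 with morusinol, a rise of 0.59 ± 0.07 (adjusted p = 8.08e-05). In SU-DHL-8 it was at 40.8, 43.2 and 39.4 and 36.2, 33.3 and 37.9 FPKM, a fall of -0.20 ± 0.07 that only just passed (adjusted p = 0.0477). Groups were apart in both lines, but the SU-DHL-8 call was lost in 5 of 6 fits that left out a library. Those were the fits without any 1 of the 3 control libraries or without the first or second morusinol library, with adjusted p from 0.0525 to 0.166. The call was also lost with protein-coding scaling (-0.12, adjusted p = 0.227), with no filter on low values (0.105) and with no trend or robust prior (0.0684), so the fall is uncertain. EGLN1, the prolyl hydroxylase that marks HIF1A protein for degradation and is itself a known HIF target, fell in SU-DHL-8 from 2.71, 2.56 and 2.24 FPKM to 1.22, 1.304 and 1.42, by -0.60 ± 0.07 (adjusted p = 6.78e-05). In Farage it rose from 2.68, 2.71 and 2.55 to 3.53, 3.29 and 3.03, by 0.23 ± 0.07 (adjusted p = 0.0286). All treated Farage libraries were above the controls, yet that call was lost in 5 of 6 fits without 1 library, with adjusted p from 0.0525 to 0.105, and held only without the third morusinol library. It was also lost with the replicate number as a block (adjusted p = 0.0848), with no filter (0.0679) and in a fit to the Farage libraries alone (0.0590).

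PDK1, the kinase that switches off pyruvate dehydrogenase and is a known HIF target, was the gene of these 4 that rose in SU-DHL-8. It went from 4.55, 4.34 and 4.43 FPKM to 8.403, 8.81 and 9.32, by 0.85 ± 0.08 (adjusted p = 5.39e-06). In Farage it stood at 3.29, 3.54 and 3.35 and 3.66, 3.25 and 4.34 FPKM, overlapping groups with 0.11 ± 0.08 (adjusted p = 0.3003). BNIP3, a mitophagy receptor and HIF target, rose in Farage from 7.502, 8.18 and 7.69 to 11.4, 11.96 and 11.5 FPKM, by 0.52 ± 0.09 (adjusted p = 6.32e-04). In SU-DHL-8 its libraries were all under 1 FPKM, at 0.276, 0.365 and 0.559 and 0.599, 0.428 and 0.685, with 0.17 ± 0.09, which passed only without the third control library (0.25, adjusted p = 0.0320). The table also lists 39 BNIP3 copies, which summed to 16.3 FPKM in SU-DHL-8 control and 10.7 FPKM in Farage control. Their sum was thus above the gene's own level in both lines before treatment, and reads of this gene are uncertain.

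In the pentose phosphate pathway no gene rose (backgrounds 25.1% of all genes tested in SU-DHL-8 and 21.9% in Farage). In SU-DHL-8 4 of 6 fell (background 21.6%), among them PGD with an unstable call, and in Farage 5 of 6 fell (background 21.2%). RPIA, which isomerises ribose phosphate for nucleotide synthesis, had the largest fall, from 41.5, 40.5 and 38.6 FPKM to 16.9, 15.3 and 15.96 in SU-DHL-8, by -1.27 ± 0.08 (adjusted p = 2.66e-07). In Farage it fell from 30.6, 28.4 and 31.9 to 21.5, 19.5 and 17.1 FPKM, by -0.62 ± 0.08 (adjusted p = 7.20e-05). Both lines showed a clear gap between groups. The transaldolase TALDO1 and the transketolase TKT, which shuttle carbon back to glycolysis, fell by -0.61 ± 0.06 and -0.45 ± 0.04 in SU-DHL-8 and by -0.43 ± 0.06 and -0.57 ± 0.04 in Farage. TALDO1 libraries were at 96.9, 95.9 and 94.3 and then 66.1, 59.6 and 61.98 FPKM in SU-DHL-8, and TKT libraries at 56.6, 55.9 and 57.9 and then 42.9, 39.8 and 41.5. Both genes were lower in all treated libraries of both lines.

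PGD, phosphogluconate dehydrogenase, which yields NADPH, fell from 77.01, 66.97 and 71.4 FPKM to 55.9, 56.8 and 48.5 in Farage, by -0.41 ± 0.07 (adjusted p = 4.99e-04). In SU-DHL-8 it fell by -0.21 ± 0.07 (adjusted p = 0.0243), a call lost without control library 1 or 3 or morusinol library 1 or 3, with adjusted p from 0.0530 to 0.0820, and also with no filter (0.0563) and with protein-coding scaling (-0.13, adjusted p = 0.104). RPE, ribulose phosphate epimerase, was at 19.2, 21.8 and 20.7 FPKM in untreated Farage and 15.1, 14.7 and 15.95 with morusinol, a fall of -0.41 ± 0.05. In SU-DHL-8 its groups overlapped at 25.5 ± 1.41 and 24.6 ± 0.185 FPKM, with -0.05 ± 0.05, which became 0.02 when scaled to protein-coding genes. Of RPE exon bases 23.8% lie opposite KANSL1L. PGLS, the lactonase of the pathway, passed in neither line, with 0.03 ± 0.06 in SU-DHL-8, which became -0.07 under TPM and -0.0028 under median-ratio scaling, and 0.08 ± 0.06 in Farage.

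The shares of isoform genes within their families differed between control and treated libraries, and for LDHB, PFKL, PFKP and ALDOC the groups were apart in both lines. LDHB made up 5.85, 5.59 and 5.605% of LDHA + LDHB in SU-DHL-8 control and 14.2, 15.3 and 14.7% with morusinol. In Farage its share was 5.55, 5.94 and 6.24% and 11.05, 12.8 and 12.005%. The control shares of the lines overlapped, and all treated libraries were above them. PFKL made up 21.04, 20.5 and 21.6% of the phosphofructokinase sum in SU-DHL-8 control and 29.9, 27.8 and 29.7% with morusinol, and 29.9, 30.6 and 31.5% and 54.3, 51.1 and 53.5% in Farage. It was thus the lowest of the 3 subunit genes in SU-DHL-8 control and Farage control, and the highest in treated Farage. The PFKP share was lower with morusinol in both lines, from 37.97% to 29.5% and from 34.6% to 24.7%, as was the PFKM share in Farage, from 34.8% to 22.3%. The ALDOC share of the aldolases went from 61.6% to 51.4% and from 82.8% to 79.6%, values as uncertain as the listed ALDOA level in their denominator. An exact permutation test of each of these shifts gave p = 0.10, two-sided, the smallest that 3 against 3 libraries allow, so none can pass 0.05. Over the 24 share tests run, the Benjamini-Hochberg adjusted value of these exact tests was 0.15.

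Other shares shifted in 1 line or differed mainly between lines. SLC2A3 made up 35.1% of SLC2A1 + SLC2A3 in Farage control and 50.98% with morusinol (exact permutation p = 0.10), and 10.6% and 12.9% in SU-DHL-8 (exact permutation p = 0.20). ENO2 made up 5.41% of the enolase sum in Farage control and 10.2% with morusinol (exact permutation p = 0.10), and under 0.1% in each SU-DHL-8 library. HK2 was the major hexokinase in SU-DHL-8, at 79.1% and 74.2%, and the minor one in Farage, at 26.9% and 28.8%. PFKFB2 went from 16.9, 16.4 and 16.9% to 37.3, 27.3 and 40.1% of its family in SU-DHL-8 (exact permutation p = 0.10) and was near 7.31% in Farage (exact permutation p = 0.90).

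**Figure D4:**
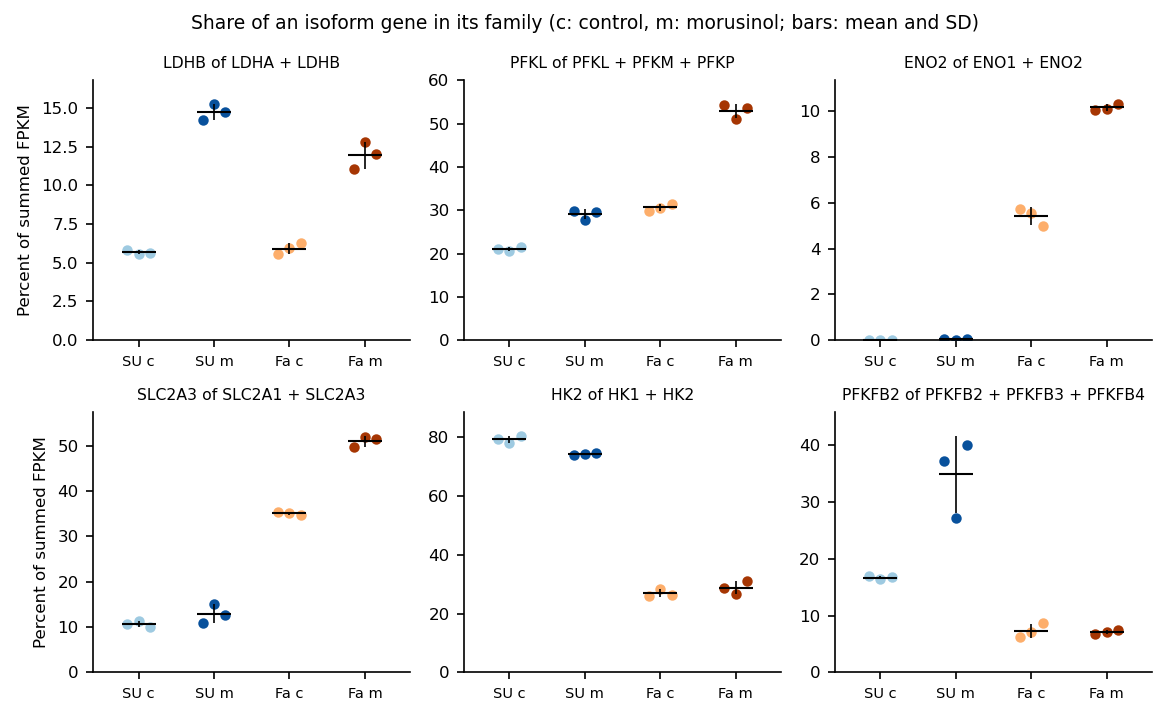
Share of 1 isoform gene in the summed FPKM of its family (y axis, percent, from 0) in each library, with 3 points per group, black bars for the mean and whiskers for the SD. SU is SU-DHL-8, Fa is Farage, c is control and m is morusinol. The LDHB and PFKL shares are higher with morusinol in both lines, from 5.68% to 14.7% and from 21.03% to 29.1% in SU-DHL-8, and from 5.91% to 11.95% and from 30.7% to 52.96% in Farage.

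Whether the lines responded differently was tested for each gene by subtracting its SU-DHL-8 change from its Farage change. The difference was positive and passed the test in 19 of the 33 genes (57.6%, background 17.3%) and negative in 2 (6.06%, background 17.6%). The 19 include ENO2 and BNIP3, which passed the filter only through Farage. The median difference was 0.35, beside -0.07 over all genes tested. Of all genes called for the difference, 49.6% were positive, and with values rescaled to TPM 62.5% were, when 18 of the 33 genes were positive and 1 negative. This contrast uses the same 12 libraries as the responses above and is no independent support for them. Of the genes that fell in both lines, GPI, PFKP, TPI1, GAPDH, PGAM1, ENO1, PKM, LDHA and RPIA fell more in SU-DHL-8, by differences from 0.47 (PFKP) to 0.69 (GAPDH). For PGK1 the difference was 0.03 ± 0.09 and for PFKM -0.02 ± 0.07, values that do not pass the test, and that of PFKM became 0.06 under TPM and 0.03 under median-ratio scaling. LDHB, ALDOA, ALDOC, TALDO1, TKT and PGD did not pass either, at 0.18 for TALDO1 and -0.13 for TKT. TALDO1 passed without the third Farage morusinol library (0.22, adjusted p = 0.0495) and under TPM, and TKT without the first (-0.17, adjusted p = 0.0472).

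The largest positive differences were those of SLC2A3 (1.25 ± 0.08, adjusted p = 1.70e-06), BSG (0.99 ± 0.07, 5.06e-06), PFKFB3 (0.84 ± 0.10, 8.83e-05), PFKL (0.83 ± 0.10, 1.34e-04) and EGLN1 (0.83 ± 0.11, 1.88e-04). HIF1A followed with 0.79 ± 0.10, then GAPDH with 0.69 and SLC2A1 with 0.68 ± 0.10. For SLC2A1, PFKFB3, HIF1A and EGLN1, which changed in opposite directions, the difference passed the test in each of the 19 alternative fits run for it. The negative differences were those of PDK1 (-0.75 ± 0.11, adjusted p = 4.13e-04) and RPE (-0.36 ± 0.08, 0.004203). RPE did not pass under TPM, at -0.25. For ENO2 (0.30 ± 0.10, 0.0441) and BNIP3 (0.35 ± 0.12, 0.0452) the call was weak. It was lost without any 1 of 9 libraries for ENO2 (all but SU-DHL-8 morusinol library 3, Farage control library 1 and Farage morusinol library 3) and without any 1 of 10 for BNIP3 (all but SU-DHL-8 control library 1 and SU-DHL-8 morusinol library 3). Adjusted p reached 0.108 for ENO2 and 0.0968 for BNIP3 in these fits. With a pseudocount of 0.1 the differences shrank to 0.12 (adjusted p = 0.834) for ENO2 and 0.13 (0.776) for BNIP3. Both calls were also lost under TPM (0.212 and 0.215), with no filter (0.107 and 0.105) and with the replicate block (0.0688 and 0.0513). Both genes passed the filter only through Farage, so neither difference is taken as a difference between the lines.

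**Figure D5:**
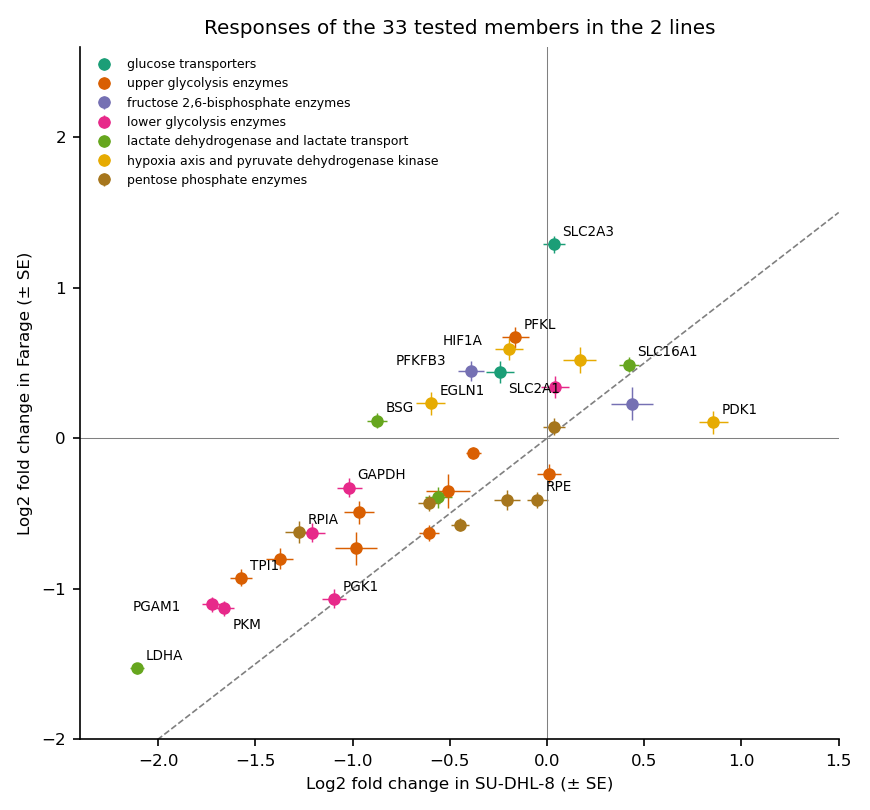
Log2 fold change of FPKM + 1 in SU-DHL-8 (x axis) against that in Farage (y axis) for the 33 tested genes, coloured by role, with SE bars. On the dashed line both responses are equal. Most points lie above it, as the median difference of 0.35 gives, and PGK1 lies near it while PDK1 and RPE lie below.

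Before treatment the lines already differed in these genes. Of the 33 tested, 18 were lower and 9 higher in Farage control than in SU-DHL-8 control (backgrounds 29.6% and 34.5%), and the median difference was -0.23, beside 0.08 over all genes. Rescaling to TPM moved the median of all genes to 0.19 and left 16 of the 33 genes lower and 9 higher. These control libraries also enter the responses above. ENO2 (4.21 ± 0.07) and BNIP3 (2.65 ± 0.09), both among the 9 counted as higher, were under 1 FPKM in all SU-DHL-8 libraries and were tested only because Farage reached it. The size of their difference is set by the pseudocount, and with 0.1 in place of 1 it was 7.12 and 4.02. Among the other genes the largest differences in favour of Farage were those of ALDOC (1.51 ± 0.11), HK1 (1.40 ± 0.06), PFKFB3 (1.34 ± 0.07) and SLC2A3 (1.33 ± 0.06). In favour of SU-DHL-8 they were those of TPI1 (-1.86 ± 0.06), HK2 (-1.78 ± 0.04), PFKM (-1.57 ± 0.05), PFKP (-1.47 ± 0.08) and SLC16A1 (-1.27 ± 0.05). All 6 pentose phosphate genes were lower in Farage, by -0.21 (PGD) to -0.80 (TALDO1). HIF1A was close between the lines, with -0.02 ± 0.07 and no call, a value that became 0.08 under TPM and 0.05 when scaled to protein-coding genes. GAPDH did not pass either (-0.13 ± 0.07), though it did without the third Farage control library (-0.20, adjusted p = 0.0117). The small differences of GPI (-0.23) and PGD lost their call without the third SU-DHL-8 control library (adjusted p = 0.0534 and 0.0514) or the second Farage control library (0.0510 and 0.0668), under TPM (0.136 and 0.187) and with protein-coding scaling (0.0603 and 0.0606).

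Of 69 other genes of the same pathways, 48 were tested, and they changed in both directions. In SU-DHL-8 16 rose and 20 fell, with a median of -0.08, and in Farage 18 rose and 16 fell, with a median of 0.04. Of all genes tested, 25.1% rose and 21.6% fell in SU-DHL-8, and 21.9% rose and 21.2% fell in Farage. Each of the counts was above its share over all genes, most so the falls in SU-DHL-8. Among other glycolytic and gluconeogenic genes, PCK2, the mitochondrial carboxykinase that makes phosphoenolpyruvate, rose from 17.9, 17.9 and 17.9 FPKM to 59.6, 55.6 and 54.6 in SU-DHL-8 and from 7.76, 5.87 and 7.53 to 53.6, 51.8 and 42.9 in Farage, by 1.61 ± 0.10 and 2.65 ± 0.10. All treated libraries were well above the controls. PGM2, a phosphopentomutase, and PGP, a phosphatase that clears glycolytic side products, fell in both lines, by -0.83 and -0.98 in SU-DHL-8 and -0.62 and -0.54 in Farage. BPGM, which makes bisphosphoglycerate, fell in SU-DHL-8 (-0.46) and was at -0.19 in Farage without passing.

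Among 6 tested carriers and lactate enzymes outside the 35, 5 fell and none rose in SU-DHL-8 (backgrounds 21.6% and 25.1%). In Farage 2 rose and 1 fell (backgrounds 21.9% and 21.2%). SLC2A8, the sugar transporter GLUT8, and SLC5A3, a sodium-coupled inositol carrier, changed in opposite directions, by -0.53 and -0.47 in SU-DHL-8 and 0.52 and 0.45 in Farage. SLC2A6 (GLUT6) fell in both, by -0.90 and -0.48. EMB, embigin, a partner of monocarboxylate carriers related to BSG, fell in SU-DHL-8 by -0.60 ± 0.07 and was at 0.08 ± 0.07 in Farage without passing.

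Of 11 tested genes of pyruvate entry to the mitochondria, 5 fell and 3 rose in SU-DHL-8 (backgrounds 21.6% and 25.1%). In Farage 6 fell and 1 rose (backgrounds 21.2% and 21.9%). The 3 that rose in SU-DHL-8 were near the background. The pyruvate dehydrogenase subunits DLAT, PDHA1 and PDHB fell in both lines, by -0.66, -0.60 and -0.34 in SU-DHL-8 and -0.73, -0.38 and -0.30 in Farage. PDK3, another kinase of the complex, fell by -0.48 and -0.58, unlike PDK1. Of 13 other hypoxia targets and HIF regulators 6 rose and 2 fell in SU-DHL-8 (backgrounds 25.1% and 21.6%). In Farage 10 rose and 2 fell (backgrounds 21.9% and 21.2%). MXI1, a repressor of the MYC network, rose by 1.43 and 1.37. VEGFA, the angiogenic factor, rose by 0.53 in SU-DHL-8 and by 1.53 in Farage, where it went from 0.377 ± 0.0521 to 2.99 ± 0.109 FPKM. The histone demethylase KDM3A rose by 0.19 and 0.55, and the mitochondrial protein gene FAM162A fell by -0.67 and -0.51. LDHA and PGK1, which are known HIF targets as well, fell in both lines.

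Of 7 other pentose phosphate and phosphoribosyl genes tested, 4 fell and 2 rose in each line. The backgrounds were 21.6% lower and 25.1% higher in SU-DHL-8, and 21.2% and 21.9% in Farage, so the risen genes were near them. PRPS1 and PRPS2, which make phosphoribosyl pyrophosphate from the ribose phosphate that RPIA supplies, fell by -0.93 and -1.30 in SU-DHL-8 and by -0.33 and -0.31 in Farage. H6PD, the dehydrogenase of the endoplasmic reticulum, rose by 1.20 and 0.32. Of the glucose-sensing genes, TXNIP, an arrestin that lowers glucose uptake, rose by 0.44 ± 0.05 in SU-DHL-8 and 1.29 ± 0.05 in Farage. Its regulator MLXIP rose in SU-DHL-8 (0.50) and was at -0.19 in Farage without passing, and the partner MLX fell in Farage (-0.33) and was at -0.16 in SU-DHL-8 without passing.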

How the data were processed

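Total RNA of 12 libraries (2 lines, control or morusinol, 12 h, 3 replicates each) was sequenced after SMARTer mRNA library preparation, per the labels' protocols. The authors deposited 1 table of FPKM per gene. For the aligner, counter and strand setting, the sources used here give nothing. Only mouse genome builds are named per the submitters' processing notes, while the table's identifiers are human Ensembl identifiers, of which 94.8% match GENCODE 29 (GRCh38), used for positions. Columns marked n were taken as control. Depth was estimated from the steps of FPKM times exon length: 52.8% to 55.7% of values under 50 fragments fell on whole numbers and 72.8% to 76.98% on steps of 0.5, within 0.02 fragments, so no count test was run.

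The 17574 genes that reached an FPKM of 1 in 3 or more libraries were tested as log2(FPKM + 1) with limma 3.58.1 (R 4.3.3; trend and robust prior, 12 libraries, 1 mean per group, two-sided, Benjamini-Hochberg), a fit tested on simulated data. Shares used exact permutation tests. Summaries and plots used Python 3.11.15, pandas 2.3.3, numpy 2.4.6 and matplotlib 3.10.9. All 35 genes are named, and of each list of related genes up to 4 by p rank over both responses, with the leading marker of each marker list and copies or overlapping genes above 5% of a member; 1 gene that this rule names is not reported here. The genes, lists and tests were chosen with earlier results of these data known. Alternatives were pseudocount 0.1, no filter, TPM, protein-coding and median-ratio scaling, a fit per contrast, no trend, a replicate block and leaving out each library.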

Additional observations from a re-analysis of the deposited data

Results flagged for a closer look

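The response to morusinol differed between the lines by the test of the difference itself (Farage response minus SU-DHL-8 response, log2, limma, adjusted p under 0.05) in 21 of the 33 tested genes (63.6%, background 34.9% of all genes tested). In the glucose transporters the difference was 1.25 for SLC2A3 and 0.68 for SLC2A1. Among upper glycolysis enzymes it was 0.83 for PFKL, 0.64 for TPI1, 0.58 for GPI, 0.47 for PFKP and 0.28 for HK2, and PFKFB3 had 0.84. Lower glycolysis gave 0.69 for GAPDH, 0.62 for PGAM1, 0.58 for ENO1, 0.53 for PKM and 0.30 for ENO2. LDHA had 0.58 and BSG 0.99. In the hypoxia axis the values were 0.83 for EGLN1, 0.79 for HIF1A, 0.35 for BNIP3 and -0.75 for PDK1. RPIA had 0.65 and RPE -0.36 in the pentose phosphate pathway. The calls of ENO2 and BNIP3, both under 1 FPKM in SU-DHL-8, were lost in 13 and 14 of 19 alternative fits, among them pseudocount 0.1 (0.12 and 0.13), no filter, TPM and the replicate block. Both are in the count of 21 but passed the filter only through Farage, so neither is taken as a difference between the lines. Of these 21 genes, only PDK1 and RPE had a lower response in Farage, and HK1 (-0.25, adjusted p = 0.0522) just missed the threshold. HK1 passed with protein-coding scaling, without the second SU-DHL-8 control library, without the second Farage control library or without the second Farage morusinol library.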

How the results depend on the processing

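The counts of genes that rose or fell stayed within 1.5 times their value under every alternative run, except that the genes with a negative difference of responses went from 2 to 1 under TPM, where fewer genes were negative over the whole table (2024 against 3088). The summed level of the 35 genes in SU-DHL-8, a ratio of 0.479, was 0.445 under TPM, 0.505 with protein-coding scaling and 0.466 with median-ratio scaling. Signs turned for values that pass no test. In SU-DHL-8 these were SLC2A3 (-0.047 under TPM), HK1 (-0.0899 under TPM, -0.025 with median-ratio scaling), PGLS (-0.068 and -0.0028) and RPE (0.023 with protein-coding scaling). The difference of responses of PFKM turned to 0.061 under TPM and 0.026 with median-ratio scaling, and the control difference of HIF1A to 0.079 under TPM and 0.046 with protein-coding scaling. Leaving out 1 library turned the sign of uncalled values, which then ranged in SU-DHL-8 from -0.014 to 0.071 (SLC2A3), -0.013 to 0.046 (HK1), -0.0012 to 0.084 (ENO2) and -0.017 to 0.072 (PGLS), for the difference from -0.0609 to 0.022 (PFKM) and -0.024 to 0.088 (PGK1), and for the controls from -0.012 to 0.066 (PFKFB2) and -0.055 to 0.025 (HIF1A). The cause of these changes was not tested. With pseudogene copies added, the change in the SLC2A3 share was 4.799 percentage points in SU-DHL-8 and 14.0 in Farage. Deviations of same-numbered libraries from their group means were hardly correlated (r from -0.08 to 0.03). With 3 libraries per group this cannot tell whether same-numbered libraries were made together, and the labels do not say. With the replicate block, 23 genes fell and 3 rose in SU-DHL-8, 19 fell and 8 rose in Farage, 17 had a positive and 2 a negative difference, and 18 were lower and 9 higher in Farage control. Over all genes the block called 4065 higher and 3554 lower in SU-DHL-8 and 3470 and 3383 in Farage, against 4414, 3802, 3848 and 3719 without it. FPKM gives no counting error, and the shallowest library (6.05 M fragments) limits genes near 1 FPKM.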
